A study of Rattus norvegicus with 24 samples.

Results

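Notch signalling was described through 10 genes: the receptors Notch1, Notch2, Notch3 and Notch4, the ligands Dll1, Jag1 and Jag2, and the targets Hes1, Hes5 and Hey1. They were chosen by name as the receptors, ligands and target genes of the pathway, and each was found among the 26641 loci of the table that carry a gene name. The study used adult male Sprague-Dawley rats that had either lateral fluid-percussion injury, a model of traumatic brain injury (TBI), or a sham operation with anaesthesia and the same surgery but without the impact. Polyadenylated RNA was sequenced 3 months later from 6 TBI rats and 6 sham-operated controls, each of which gave its perilesional cortex and its ipsilateral thalamus, in all 24 libraries from 12 rats in 4 groups of 6. The sequenced TBI animals had been selected by magnetic resonance imaging for a chronic inflammatory rim around the lesion, so they stand for that form of injury and not for all injured rats. The labels give no transgene and no drug.

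Notch receptors are transmembrane proteins that are activated by Delta-like and Jagged ligands on a neighbouring cell. Ligand binding lets an ADAM protease and then gamma-secretase cut the receptor, and the released intracellular part enters the nucleus, where it joins the DNA-binding protein RBPJ and Mastermind co-activators on target genes. The best-known targets are transcriptional repressors of the HES and HEY families. In the adult brain Notch1 and Notch2 are known from glia and neural stem cells, Notch3 from vascular mural cells and Notch4 from endothelium.

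The letters that RBPJ reads were looked up in the promoters of the members because the targets are the readout of the pathway. RefSeq (assembly GRCr8) gave a window of 250 bases before and 50 bases after the start for 9 of the 10 members, the exception being Hey1, and Jag2 had more than 1 entry. The 250 bases before the start of the 2 matched targets, and of the ligand Dll1, whose window also held repeated matches, are printed 5′ to 3′ on the gene's strand, with TGGGAA and its reverse complement TTCCCA in capitals. Hes1 lies at chr11:84213046.0-84213295.0 on the minus strand, Hes5 at chr5:170804327.0-170804576.0 on the plus strand and Dll1 at chr1:64993275.0-64993524.0 on the minus strand.
Hes1: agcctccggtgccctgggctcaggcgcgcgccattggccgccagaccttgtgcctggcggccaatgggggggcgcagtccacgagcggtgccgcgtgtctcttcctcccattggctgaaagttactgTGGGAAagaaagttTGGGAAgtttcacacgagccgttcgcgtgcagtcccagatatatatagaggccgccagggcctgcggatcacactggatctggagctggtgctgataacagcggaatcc
Hes5: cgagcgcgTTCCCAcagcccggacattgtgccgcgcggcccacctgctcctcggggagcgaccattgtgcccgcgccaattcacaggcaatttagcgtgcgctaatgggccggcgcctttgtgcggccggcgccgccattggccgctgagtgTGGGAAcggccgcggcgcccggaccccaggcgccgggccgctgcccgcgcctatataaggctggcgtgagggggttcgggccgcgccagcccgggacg
Dll1: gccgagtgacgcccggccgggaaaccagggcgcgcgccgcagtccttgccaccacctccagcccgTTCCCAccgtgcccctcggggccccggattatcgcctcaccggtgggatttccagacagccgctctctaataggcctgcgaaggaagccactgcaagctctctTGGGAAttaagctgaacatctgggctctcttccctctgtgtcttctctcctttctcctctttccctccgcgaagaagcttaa
Counted back from the start, with -1 as the base beside it, the matches of Hes1 began at -123 and -109, those of Hes5 at -242 and -98 and those of Dll1 at -185 and -82. Of the 9 members with a promoter, 5 held TGGGAA on either strand, the others being Notch3 and Notch4, while 25.7% of all 33469 promoters held it. Notch4, not printed here, also held 2 matches, which began at -246 and -93, and Notch3 held 1 after the start. The longer string GTGGGAA, which contains TGGGAA, occurred in 3 of the 9, namely Hes1, Hes5 and Dll1, against 6.29% of all promoters. Hes5 held GTGGGAA at 2 places, and 0.236% of all promoters held it at least that often. A match is a description of the letters and not a binding site, and no match was found for Notch1, Notch2, Jag1 and Jag2 in these windows.

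Expression is given as the deposited normalized count, the fragments counted for a locus divided by a scaling factor of the library. Libraries held from 30568928 to 54608919 fragments on all loci, with ranges that overlapped between the groups, and each member had at least 130 fragments in every library. The medians were 36879200 fragments in sham cortex, 45279900 in TBI cortex, 39660900 in sham thalamus and 37118300 in TBI thalamus. Groups were compared on the log2 scale (normalized count + 1) with limma, fitted across all named loci with a mean of at least 10, and a gene was called when its Benjamini-Hochberg adjusted p was under 0.05. Thalamic and cortical marker genes fell where the labels put them, since all 6 cortex genes of the list were lower in sham thalamus than in sham cortex (median log2 difference -5.74) and all 6 thalamus genes were higher (median 4.91). Choroid plexus genes differed most between libraries of a group, and TBI rat 45 had the highest sum, with 261683 normalized counts in its thalamus against a median of 1504 in that group and 32413 in its cortex against a median of 924. The highest sums of sham libraries were 107768 in the thalamus and 23641 in the cortex. The thalamus estimates of Notch2, Jag1 and Hes1, each highest in TBI rat 45, are given with and without that rat. In such bulk tissue, fewer cells of a type and less RNA per cell cannot be told apart.

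**Figure D1:**
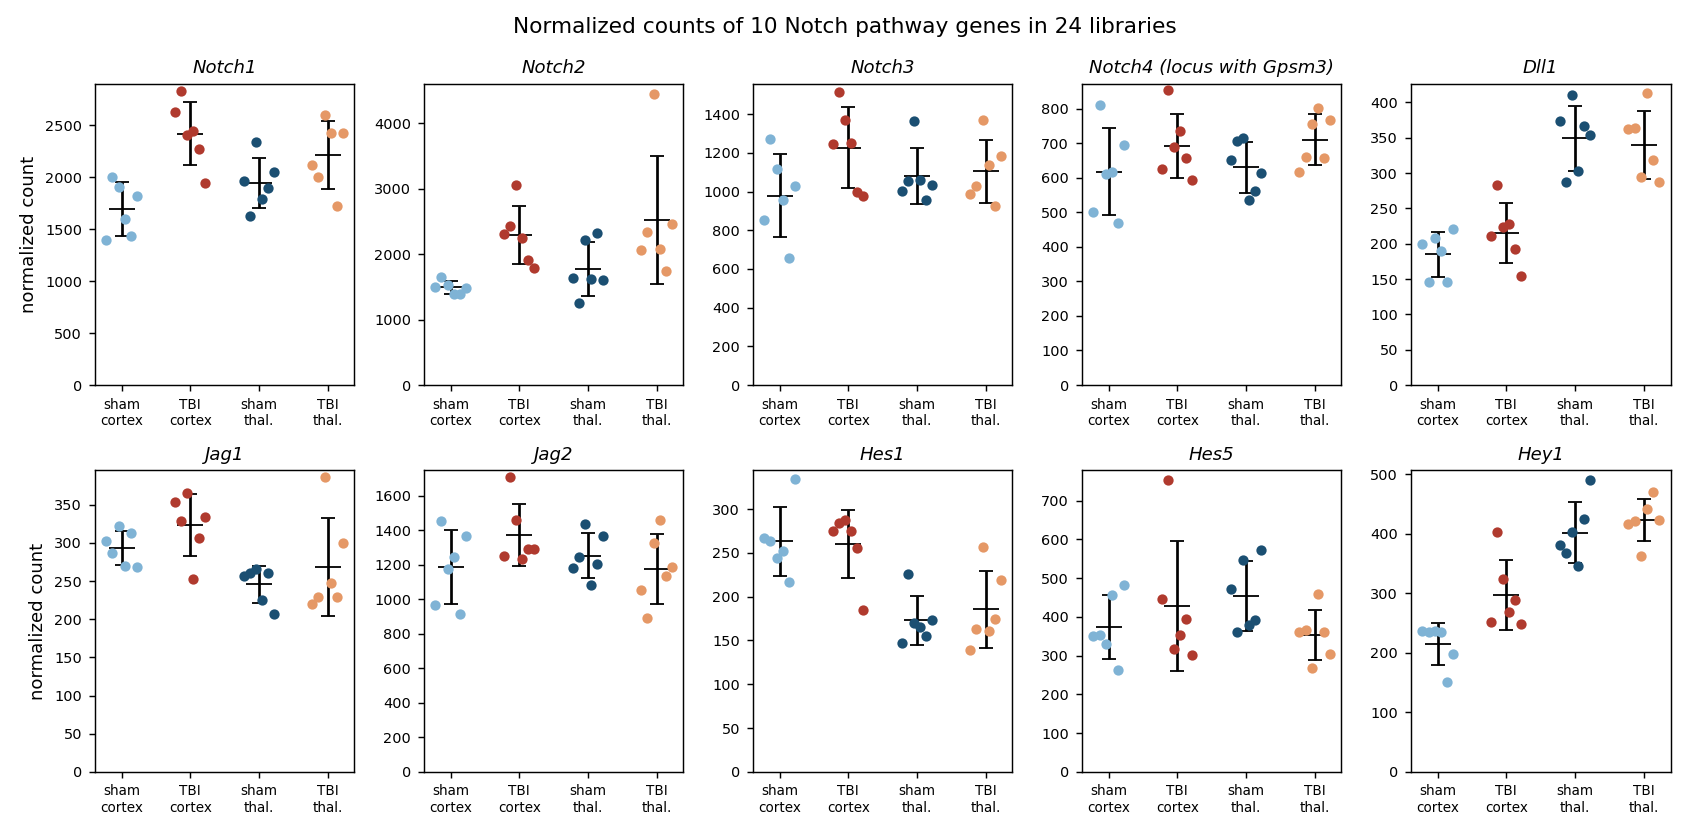
Normalized counts (vertical axis, linear from 0) of the 10 members in sham cortex, TBI cortex, sham thalamus and TBI thalamus. Each point is a library, with the rats of a group from left to right in the order of their numbers; the horizontal mark is the mean and the bar is ± 1 SD (n = 6). Notch2 and Hey1 of TBI cortex lie wholly above sham cortex, and the highest point of Notch2 in TBI thalamus, 4442, is rat 45.

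In the perilesional cortex the question was whether the pathway differed 3 months after injury. Of the 10 members, 3 were upregulated in TBI animals and 0 were downregulated by limma, and edgeR on recovered fragments gave the same counts. Under an unadjusted p of 0.05 there were 4 members in the cortex, all higher. The 3 were the receptors Notch1 (1.43-fold) and Notch2 (1.51-fold) and the target Hey1 (1.38-fold). Across all 15493 loci tested, 14.3% were higher and 14.9% lower by the same rule. The median log2 fold change was 0.22 over the members and -0.01 over all loci. The groups did not overlap for 2 of the 10 members, Notch2 and Hey1, against 12.5% of all loci.

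Notch1, a receptor at chromosome 3, 9266562 to 9311575 (positions as the files give them; the labels name build Rnor_5.0, while the study's methods name RGSC3.4 for the alignment and Rnor_5.0 for the annotation), ranged in sham cortex from 1398 to 2007 normalized counts with a median of 1711. In TBI cortex it ranged from 1940 to 2829 with a median of 2425. All but the lowest TBI library, rat 63, lay above every sham library. The means were 1694.5 ± 255 and 2419 ± 305 (SD, n = 6 each), a log2 fold change of 0.52 with a standard error of 0.10 and a limma adjusted p of 0.00183.

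Notch2, at chromosome 2, 219662501 to 219795961, had a normalized count that ranged from 1394 to 1657 (median 1489.9) in sham cortex and from 1794 to 3050.5 (median 2269) in TBI cortex. Sham libraries were close to each other, with a coefficient of variation of 6.54%, and every TBI library was above the highest of them. The log2 fold change was 0.60 (standard error 0.10, limma adjusted p = 0.000675).

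Notch3 and Notch4 did not pass the test in the cortex. Notch3, at chromosome 7, 14293832 to 14345774, ranged from 655 to 1270.1 (median 991) in sham and from 975 to 1515 (median 1249) in TBI animals. Only 2 TBI libraries were above every sham library, and the log2 difference of 0.34 had a 95% interval from 0.03 to 0.64 and a limma adjusted p of 0.0904. Without sham rat 32 or without TBI rat 63 the adjusted p was 0.0371 and 0.0463, with log2 fold changes of 0.42 and 0.40, so its call turned on single libraries. The Notch4 value is that of a locus the table names for Notch4 and Gpsm3 together, at chromosome 20, 6396722 to 6596934, so the fragments of these genes cannot be separated. This joined locus ranged from 468 to 809.6 (median 613) in sham and from 593 to 853 (median 674) in TBI cortex, with overlapping groups and a log2 difference of 0.18 (95% interval -0.08 to 0.44).

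No ligand passed the test in the cortex. Dll1, a Delta-like ligand, ranged from 145 to 221 (median 195) in sham and from 155 to 283 (median 218) in TBI cortex. Jag1 ranged from 269 to 322 (median 295) and from 253 to 366 (median 332). Jag2 ranged from 913 to 1452 (median 1212) and from 1233 to 1707 (median 1293). The groups of all 3 ligands overlapped, although 4 TBI libraries of Jag1 were above its sham range and 1 was below it. Their log2 differences were 0.22 for Dll1 (95% interval -0.09 to 0.52), 0.13 for Jag1 (-0.06 to 0.33) and 0.22 for Jag2 (-0.02 to 0.46), with limma adjusted p from 0.159 to 0.293.

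The targets differed from each other in the cortex. Hey1, a repressor that carries a basic helix-loop-helix domain, at chromosome 2, 115062449 to 115064660, ranged from 151 to 237 (median 235) in sham and from 249 to 403 (median 278) in TBI cortex. No TBI library reached down into the sham range. Its log2 fold change was 0.46 (standard error 0.14, limma adjusted p = 0.0200). Hes1, which keeps progenitors undifferentiated in development, ranged from 217 to 335 (median 258) in sham and from 185 to 287 (median 275) in TBI cortex, at chromosome 11, 77360109 to 77362537. Its groups overlapped, with a log2 difference of -0.02 (95% interval -0.27 to 0.24). Hes5, a HES factor of neural progenitors and glia at chromosome 5, 175820391 to 175821843, ranged from 264 to 483 (median 351) and from 301 to 754 (median 374). A single library, TBI rat 24, gave its highest value of 754, and the log2 difference was 0.15 with that rat (95% interval -0.27 to 0.58) and -0.03 without it. Hes1 and Hes5, whose promoters hold the repeated TGGGAA strings printed above, were thus not called, and the interval of each spans 0.

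TBI rat 24 had the highest cortex value of the TBI group for 7 of the 10 members, and rat 45 for the other 3, Notch2, Jag1 and Hes1. Summed mural and endothelial markers of TBI cortex were also highest in rat 45, at 26147 and 16479 normalized counts against medians of 20751 and 15591. The sums of oligodendrocyte precursor, choroid plexus and ependymal genes were highest in rat 45 too. The part of these cells in the members' values was not tested. Without rat 24 the cortex log2 fold changes were 0.47 for Notch1, 0.57 for Notch2 and 0.37 for Hey1, with limma adjusted p of 0.00384, 0.00158 and 0.0387. Leaving out each of the 12 cortex libraries in turn kept these 3 genes called, with log2 fold changes from 0.46 to 0.58 for Notch1, from 0.51 to 0.66 for Notch2 and from 0.36 to 0.51 for Hey1. TBI rat 63, whose cortex library was the smallest of its group (33282554 fragments), had the lowest value of all members but Jag1 and Jag2. Sham rat 32, with the largest sham cortex library (47460467 fragments), had the highest value of 5 members. Sham rat 55, with 35722323 fragments, had the highest of 3 and sham rat 34, with 42603534, that of 2. In the thalamus TBI rat 56, with the largest library of all (54608919 fragments), had the lowest Notch1, Notch2 and Notch3 of its group and the highest Hey1. The part of library size in the members' values was not tested.

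**Figure D2:**
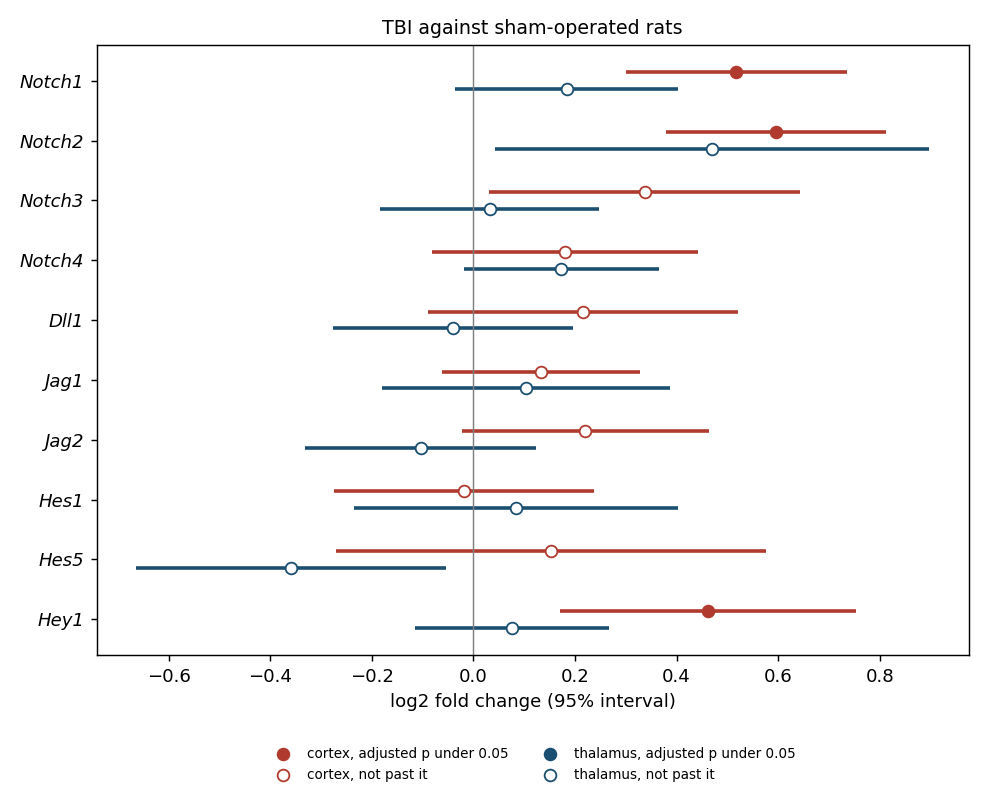
Log2 fold change of each member in TBI against sham-operated rats (horizontal axis, points with 95% intervals of the limma fit, n = 6 against 6), in red for the perilesional cortex and in blue for the ipsilateral thalamus. Filled points passed an adjusted p of 0.05: these are Notch1, Notch2 and Hey1 in the cortex, and no member in the thalamus.

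In the ipsilateral thalamus none of the 10 members was called by limma in either direction, while 14.5% of the 15564 loci tested were higher and 20.9% lower. With TMM scaling in place of the deposited scaling, 45.7% of the called loci were lower instead of 59.0%, and no member was called with it either. By limma, 2 members had an unadjusted p under 0.05, Notch2 (0.0334) and Hes5 (0.0240). edgeR on recovered fragments, which left out sham rat 55, called 0. Over the members the log2 fold changes had a median of 0.08, against -0.02 over all loci. For no member were the groups apart, against 18.2% of all loci.

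Notch2 in the thalamus ranged from 1247 to 2325 (median 1621) in sham and from 1737 to 4442 (median 2203) in TBI animals. The upper end of the TBI group is rat 45, and the next highest library had 2464. The upper end of the sham group is rat 50, which also had the highest choroid plexus sum of sham thalamus, 107768 normalized counts. The next highest Notch2 of sham thalamus was 2210 in rat 34. In sham cortex rat 26 had the highest choroid plexus sum, 23641, and its Notch2 of 1491 lay at the group median of 1490. In TBI cortex rat 45 was highest for both. The log2 difference was 0.47 (95% interval 0.04 to 0.90, limma adjusted p = 0.0823) with rat 45 and 0.29 (adjusted p = 0.134) without it. Leaving out TBI rat 56, the lowest of the group, gave an adjusted p of 0.0436 for Notch2 and of 0.0466 for Notch1, and a single fit of all 24 libraries gave 0.0316 for Notch2. The same rat 45 had the highest TBI thalamus value of 5 members, Notch1, Notch2, Notch3, Jag1 and Hes1, and the lowest of Hes5 and Hey1. Its summed mural and endothelial markers were also the highest of that group, at 25260.2 and 17933 normalized counts against medians of 19167 and 14764, as was its choroid plexus sum given above, and their part in the Notch2 value was not tested.

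Notch1 ranged from 1623 to 2344 (median 1931) in sham and from 1719 to 2598 (median 2270.3) in TBI thalamus, and 3 TBI libraries were above every sham library (log2 difference 0.18, 95% interval -0.04 to 0.40). Notch3 ranged from 958 to 1363 (median 1046) and from 923 to 1371 (median 1084), a log2 difference of 0.03 (95% interval -0.18 to 0.25). The joined Notch4 and Gpsm3 locus ranged from 535 to 716 (median 632) and from 618 to 801 (median 708), a log2 difference of 0.17 (95% interval -0.02 to 0.36). All receptors thus overlapped between sham and TBI thalamus.

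No ligand passed the test in the thalamus either. Dll1 ranged from 288 to 411 (median 359.9) in sham and from 287 to 413 (median 340.4) in TBI animals, so that the ranges nearly coincided, with a log2 difference of -0.04 (95% interval -0.28 to 0.20). Jag1 ranged from 207 to 265 (median 258) and from 220.2 to 386 (median 239), where 386 is rat 45 and the log2 difference was 0.10 with it and -0.01 without it. Jag2 ranged from 1084 to 1436 (median 1226) and from 893 to 1463 (median 1160.3), with a log2 difference of -0.10 (95% interval -0.33 to 0.12).

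Hes5 was the target with the lowest estimate in the thalamus. It ranged from 362 to 573 (median 432) in sham and from 267 to 458 (median 361) in TBI animals, and 4 of the 6 TBI libraries were below every sham library. The log2 difference was -0.36 (95% interval -0.66 to -0.05) with a limma adjusted p of 0.0636. It passed without sham rat 32 (adjusted p = 0.0377) and without TBI rat 52 (adjusted p = 0.0248), with log2 fold changes of -0.42 and -0.44, so single libraries decided that call. Hes1 ranged from 147 to 226 (median 168) and from 139 to 257 (median 169), and its log2 difference of 0.08 became -0.02 without rat 45. Hey1 ranged from 346 to 489.7 (median 392) and from 363 to 469.9 (median 422), a log2 difference of 0.08 (95% interval -0.12 to 0.27).

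Whether TBI acted differently on the members in the thalamus than in the cortex was the question of an interaction term in a fit of the 24 libraries. No member was called, while 2.72% of 15678 loci had a higher and 4.54% a lower difference in the thalamus than in the cortex. The estimate was negative for 9 members, Hes1 being the exception, although the joined Notch4 locus had an estimate of -0.01 that turned to 0.02 with upper quartile scaling. By limma, 2 members had an unadjusted p under 0.05. The difference of log2 fold changes was -0.33 for Notch1 (95% interval -0.65 to -0.02, limma adjusted p = 0.199) and -0.39 for Hey1 (95% interval -0.74 to -0.04, adjusted p = 0.177). edgeR called 0 members here as well. The cortex calls of Notch1, Notch2 and Hey1 are therefore not shown to be particular to the cortex.

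Levels also differed between regions of sham-operated rats, where 4 of the 10 members were called. Dll1 and Hey1 were higher in the thalamus, and Jag1 and Hes1 were lower. Of 15582 loci, 33.9% were higher and 28.3% lower in the thalamus, so the members' share was not above the background. The groups did not overlap for 3 of the 10 members, Dll1, Hey1 and Jag1, against 43.1% of all loci. The p-values treat the regions of a rat as separate samples, and a fit with the rat as a block called 2 members higher and 2 lower as well.

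Dll1 had a mean of 185 ± 32.2 normalized counts in sham cortex and 349 ± 46.1 in sham thalamus (SD, n = 6), a log2 fold change of 0.92 (standard error 0.12, limma adjusted p = 8.25e-06). Over sham and TBI rats together, its 12 cortex libraries ranged from 145 to 283 and its 12 thalamus libraries from 287 to 413. The regions were apart in sham and TBI rats alike. The table lists Dll1 at 2 loci with the same positions, chromosome 1, 242107687 to 242116420, and gives no strand, and the values here are those of the locus with the higher mean, 272 against 16.1 over the 24 libraries.

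Hey1 had a mean of 215 ± 35.1 in sham cortex and 402 ± 50.7 in sham thalamus, a log2 fold change of 0.91 (standard error 0.12, limma adjusted p = 6.62e-06). By group median the order of Hey1 was sham cortex, TBI cortex, sham thalamus and TBI thalamus. Sham and TBI cortex did not overlap, while TBI cortex reached up to 403 and sham thalamus down to 346.

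Jag1, at chromosome 3, 136558687 to 136594097, was lower in sham thalamus (246 ± 24.0) than in sham cortex (294 ± 22.3), with a log2 fold change of -0.26 (standard error 0.08, limma adjusted p = 0.0141). The gap between the groups was narrow, from 265 to 269, and the adjusted p was 0.0562 in a single fit of all 24 libraries. Hes1 had means of 263 ± 39.4 in sham cortex and 173 ± 27.8 in sham thalamus, a log2 fold change of -0.60 (standard error 0.12, limma adjusted p = 0.000317), and 5 of its 6 thalamus libraries were below every cortex library. The targets thus went opposite ways between regions, Hey1 being higher and Hes1 lower in the thalamus.

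The remaining members did not pass between regions, namely Notch1, Notch2, Notch3, the joined Notch4 locus, Jag2 (at chromosome 6, 146707330 to 146729480) and Hes5. Their log2 differences ran from 0.05 for Notch4 to 0.29 for Hes5, with limma adjusted p from 0.0924 to 0.753. Without sham thalamus rat 32, Notch1 (0.25, adjusted p = 0.0385) and Notch2 (0.31, adjusted p = 0.0148) were also called, so the count of higher members was 4 in place of 2. Notch1 was called without sham cortex rat 32 too (0.25, adjusted p = 0.0381), and Hes5 without sham cortex rat 55 (0.37, adjusted p = 0.0435).

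**Figure D3:**
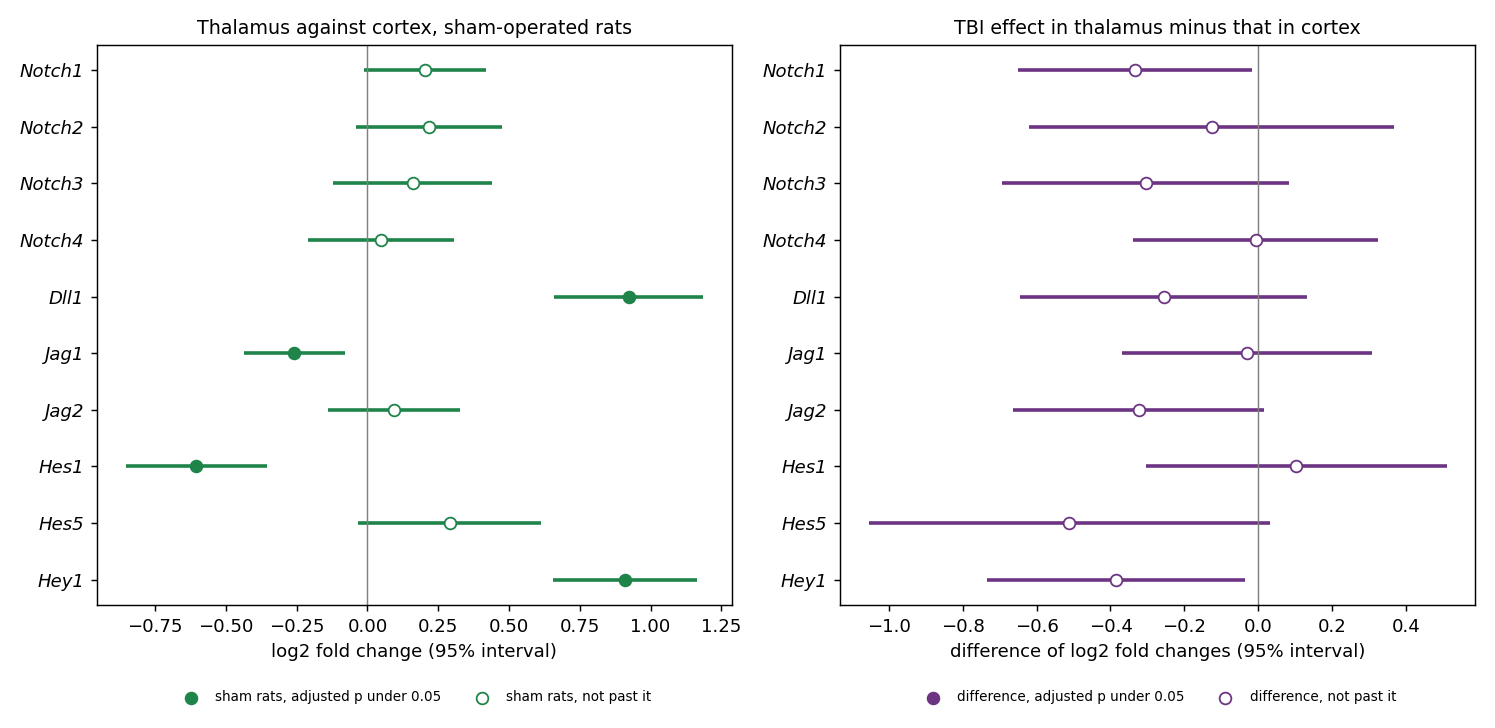
Left, log2 fold change of each member in sham thalamus against sham cortex. Right, the TBI effect in the thalamus minus the TBI effect in the cortex. Points are limma estimates with 95% intervals (6 libraries in each group). On the left Dll1 and Hey1 are filled at 0.92 and 0.91 and Jag1 and Hes1 at -0.26 and -0.60, and on the right no point is filled.

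The rest of the pathway was followed through 7 lists with 66 genes, of which 62 were found in the table. In the cortex 58 were tested, of which 6 were higher (10.3%) and 8 lower (13.8%), both shares below those of all loci given above. Their log2 fold changes had a median of 0.01. In the thalamus 12 of 59 were higher (20.3%) and 14 lower (23.7%), with a median of -0.04, beside 14.5% and 20.9% of all loci. edgeR on recovered fragments, which left out sham thalamus rat 55, called fewer pathway genes in the thalamus. Over all loci it called 1840 higher there, against 2259 by limma with that rat. Among them 1 of the other ligands was lower in place of 3, and 2 receptor proteases were higher in place of 3. Dll3, Hes2 and Helt were too low to be tested in either region, and so was Hes3 in the cortex. At these low counts Helt ranged from 0 to 6.46 in sham and from 8.08 to 17.5 in TBI cortex, without overlap, and this difference was not tested.

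Among the other ligands 3 of 7 were lower in each region. Dll4, a Delta-like ligand of vessel sprouts, ranged from 136 to 269 (median 200.4) in sham and from 94.0 to 171 (median 141) in TBI cortex, a log2 fold change of -0.60 (standard error 0.18, limma adjusted p = 0.0240). It was also lower in the thalamus (-0.43, adjusted p = 0.0483). The cortex call of Dll4 was lost without sham rat 26, 34 or 50 or TBI rat 56, with adjusted p up to 0.0565, and its thalamus call under 12 of 21 alternatives. The other ligands that fell in the cortex were the contactins Cntn1 (-0.21) and Cntn6 (-0.44), neuronal adhesion proteins. In the thalamus these were Dlk2 (-0.42) and Dner (-0.18), a neuronal transmembrane protein with EGF-like repeats. Dner kept its call under 8 of 21 alternatives.

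Nov, a secreted matrix protein that can bind Notch, was higher in TBI thalamus, with a range from 302 to 660.4 (median 342) against 158 to 331 (median 209) in sham rats. Its log2 fold change was 0.79 (standard error 0.20, limma adjusted p = 0.00611), against 0.02 in the cortex (adjusted p = 0.933). The difference between the regions was called (0.77, adjusted p = 0.0485), but under 13 of 34 alternatives only, with adjusted p up to 0.0891. Nov was also the pathway gene with the largest fall between regions of sham rats, at -4.52 on the log2 scale, with medians of 4823 in the cortex and 209 in the thalamus.

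The enzymes that modify and cut the receptors did not all rise. Of 5 receptor glycosylation genes, limma called 1 higher and 0 lower in TBI cortex. For TBI thalamus the counts of this list were 2 and 1, and edgeR gave 1 and 0. Of 9 receptor protease genes, 2 were higher and 1 lower by limma in TBI cortex, against 3 and 0 for TBI thalamus. Mfng, a Fringe glycosyltransferase, was higher in both regions. Its ranges were 143 to 227 and 237 to 312 in sham and TBI cortex, which did not overlap, with a log2 fold change of 0.40 (standard error 0.11, limma adjusted p = 0.0152). In the thalamus the log2 fold change of Mfng was 0.58 (adjusted p = 0.000213). The protease gene Adam17 was higher in both regions (0.24 and 0.29), and Adam10 in the thalamus (0.27). The gamma-secretase gene Psen2 was higher in the cortex (0.24), and the TBI effect on it was lower in the thalamus than in the cortex (-0.33, adjusted p = 0.0447). With the rat as a replicate block the adjusted p of this difference was 0.0589, and the cortex call of Psen2 held under 14 of 21 alternatives, being lost among others without TBI rat 45 (0.22, adjusted p = 0.0729).

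Among 16 nuclear cofactors tested, Maml2, a Mastermind co-activator, and Hdac1, a histone deacetylase, were higher in both regions, although the cortex call of Hdac1 was lost without TBI rat 45 (0.16, limma adjusted p = 0.0620). Maml2 had log2 fold changes of 0.30 in the cortex (limma adjusted p = 0.00325) and 0.39 in the thalamus (adjusted p = 0.00781). Rbpj itself did not pass, with 0.02 in the cortex (adjusted p = 0.869) and 0.19 in the thalamus (adjusted p = 0.0521). In the cortex its 6 sham libraries ranged from 1924 to 2226 and its 6 TBI libraries from 1719.9 to 2387, around them.

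The list of inhibitors and turnover genes had the most falls by count, though not by share in the cortex. There 4 of 14 were lower (28.6%) and 1 was higher, while 42.9% of the other ligands were lower. In the thalamus 7 were lower (50%) and 3 higher. Of all loci 14.9% were lower in the cortex and 20.9% in the thalamus. With edgeR 5 of the 14 were lower in each region. Fbxw7, part of a ubiquitin ligase that marks the active Notch fragment for destruction, fell from 5135 to 5772 in sham to between 3635 and 4263 in TBI cortex. Its log2 fold change was -0.48 in the cortex (limma adjusted p = 1.11e-05) and -0.50 in the thalamus (adjusted p = 0.000141), with no overlap in either region. Bend6, a neuronal partner of RBPJ that represses Notch targets, had log2 fold changes of -0.45 (adjusted p = 0.00145) and -0.54 (adjusted p = 0.000304). Dtx2, a Deltex ubiquitin ligase, was higher, at 0.40 in the cortex (adjusted p = 0.0361) and 0.21 in the thalamus (adjusted p = 0.0248). The thalamus call of Dtx2 was lost in a single fit of all 24 libraries (adjusted p = 0.137) and without TBI rat 22 or sham rat 50. Its cortex call held under 12 of 21 alternatives and was lost when any of TBI rats 22, 24, 45, 52 and 56 or sham rats 26, 34 and 50 was left out, with adjusted p up to 0.0754.

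Nrarp, a feedback inhibitor that is itself induced by Notch, was lower in TBI thalamus, with a range from 324 to 425 (median 401) against 442 to 605 (median 479) in sham rats. The groups did not overlap, and the log2 fold change was -0.39 (standard error 0.10, limma adjusted p = 0.00632). The TBI effects on Dtx4, another Deltex gene, and on Lnx1, a ubiquitin ligase of the Notch inhibitor Numb, differed between regions, by 0.44 (adjusted p = 0.00349) and -0.30 (adjusted p = 0.0271). With the rat as a replicate block the adjusted p of Lnx1 was 0.0676. With Nov and Psen2 these were the 4 called of 59 pathway genes in the test of the difference, 2 in each direction.

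Of the other HES and HEY family genes 0 of 4 were called in the cortex. In the thalamus 1 of 5 was higher and 1 lower (20% each), beside 14.5% and 20.9% of all loci. Hes3, a HES repressor of neural progenitors, ranged from 28.6 to 134 (median 73.1) in sham and from 20.6 to 41.3 (median 28.3) in TBI thalamus. Its log2 fold change was -1.21 (standard error 0.30, limma adjusted p = 0.00568), the largest fall among the pathway genes. Hey2, a relative of Hey1, was higher in the thalamus (0.25, adjusted p = 0.0258), where Hey1 did not pass. With edgeR, which left out sham rat 55, the adjusted p of Hey2 was 0.0510. The call of Hey2 was also lost without TBI rat 45 (0.20, limma adjusted p = 0.0507), TBI rat 56, sham rat 38 or sham rat 55.

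Between the regions of sham rats 17 of 59 pathway genes were higher in the thalamus (28.8%) and 22 lower (37.3%), beside 33.9% and 28.3% of all loci. The largest differences upwards were Hes3 (2.73), Dner (1.45) and Cntn6 (1.29), and downwards, after Nov, Tle2 (-1.75), a Groucho co-repressor, and Numbl (-1.19), a relative of Numb.

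**Figure D4:**
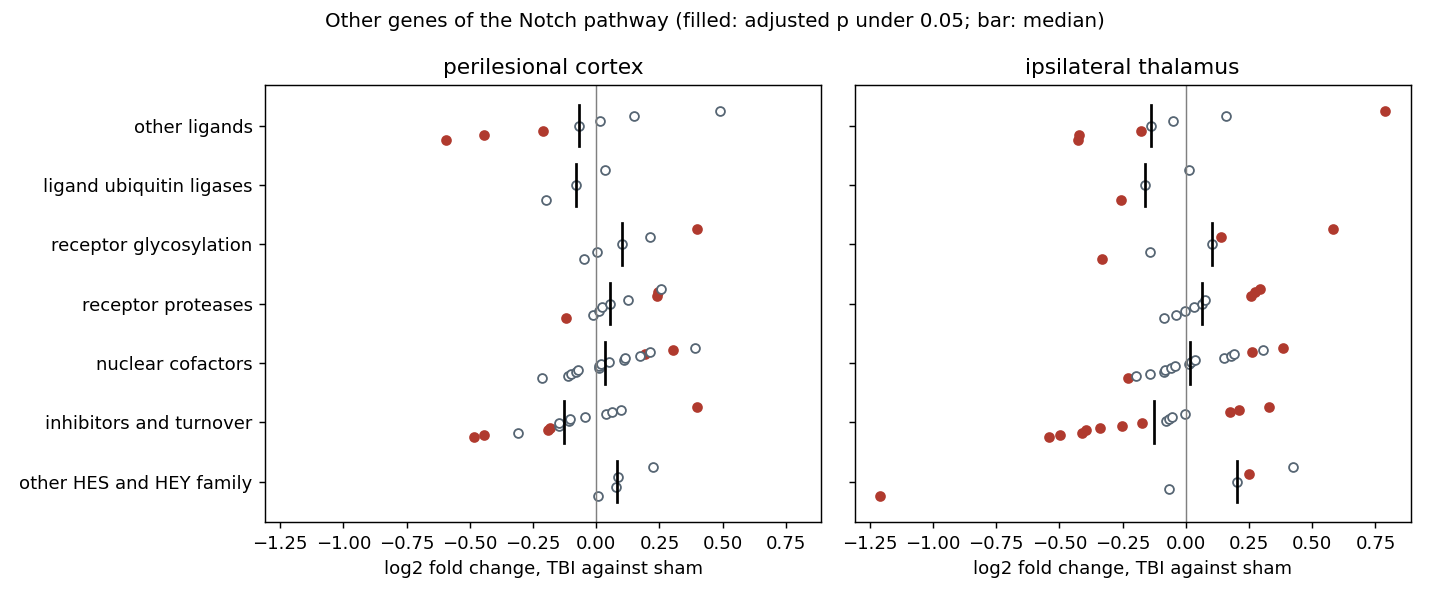
Log2 fold change in TBI against sham-operated rats (horizontal axis) of the other pathway genes, grouped by list, in the perilesional cortex (left) and the ipsilateral thalamus (right). Each point is a gene, filled when its adjusted p was under 0.05, and the bar is the list's median. Hes3 at -1.21 and Nov at 0.79 are the outermost points in the thalamus.

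Cell type markers moved with TBI in both regions. Microglial genes were higher for 9 of 10 in the cortex and 10 of 10 in the thalamus (medians 0.54 and 0.96), and their summed normalized counts ran from 21085 to 23744 in sham and from 29435 to 34007 in TBI cortex. In the thalamus these sums ran from 23192 to 30394 and from 47647 to 59018. Neuronal genes were lower for 10 of 12 in both regions (medians -0.33 and -0.58), with sums from 441083 to 475671 in sham cortex and from 311555 to 409074 in TBI cortex.

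Markers of cell types known to carry Notch receptors were counted in the same fits. Mural cell genes, among which Pdgfrb marks pericytes, were higher for 3 of 9 in the cortex and 7 of 9 in the thalamus (medians 0.30 and 0.41). Their sums ran from 17072 to 20084 in sham and from 18127 to 26147 in TBI cortex, and from 13143 to 17652 and from 17392 to 25260.2 in the thalamus. Endothelial genes were higher for 2 of 9 and 5 of 9 (medians 0.12 and 0.32). With edgeR, which left out sham thalamus rat 55, 3 of 9 mural cell genes were called in each region. The part of these cells in the members' values was not tested.

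Of 11 astrocyte genes 4 were higher and 2 lower in the cortex, and 4 were higher in the thalamus. The medians were 0.16 and 0.08, and Gfap, a filament protein of reactive astrocytes, had a log2 fold change of 2.26 in each region. Astrocyte sums ran from 326903 to 349953 in sham and from 349776 to 397002 in TBI cortex, and from 253160 to 266817 and from 345384 to 399948 in the thalamus. Within these sums the mean of Gfap went from 12344 to 59944 in the cortex and from 22021 to 103947 in the thalamus. Slc1a2, with the highest mean of the 11 in sham rats, went from 185200 to 160246 in the cortex. In the thalamus it went from 84478.5 to 78940 and was not called. The higher sums are thus not a rise of all astrocyte genes. Oligodendrocyte precursor genes were higher for 4 of 5 in the cortex (median 0.30) and 1 of 5 in the thalamus. Mature oligodendrocyte genes were higher for 2 of 6 and 1 of 6.

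All 3 genes tested from the ependymal list were higher in TBI cortex and 0 in the thalamus, where 0 also had an unadjusted p under 0.05 and edgeR called 0. Tmem212, a gene of ciliated cells, was at 0 in 3 of the 6 sham cortex libraries and at most 3.35 in the others, and ranged from 2.38 to 60.3 in TBI cortex. Ccdc153 ranged from 9.69 to 21.5 and from 20.2 to 203. The third gene, Rarres2, ranged from 934 to 1078 and from 1021 to 1668. Unlike the other genes of this list, it was higher in sham cortex than in sham thalamus, with means of 992 and 636. Genes listed as ependymal were called in the same comparison as Notch1, Notch2 and Hey1. In that comparison 9 of 10 microglial and 4 of 5 oligodendrocyte precursor genes were higher too, and 10 of 12 neuronal genes were lower. The part of ependymal or other cells in the calls of Notch1, Notch2 and Hey1 was not tested. Of 7 choroid plexus genes limma and edgeR called 0 in either region, with 1 under an unadjusted p of 0.05 in the cortex and 0 in the thalamus.

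**Figure D5:**
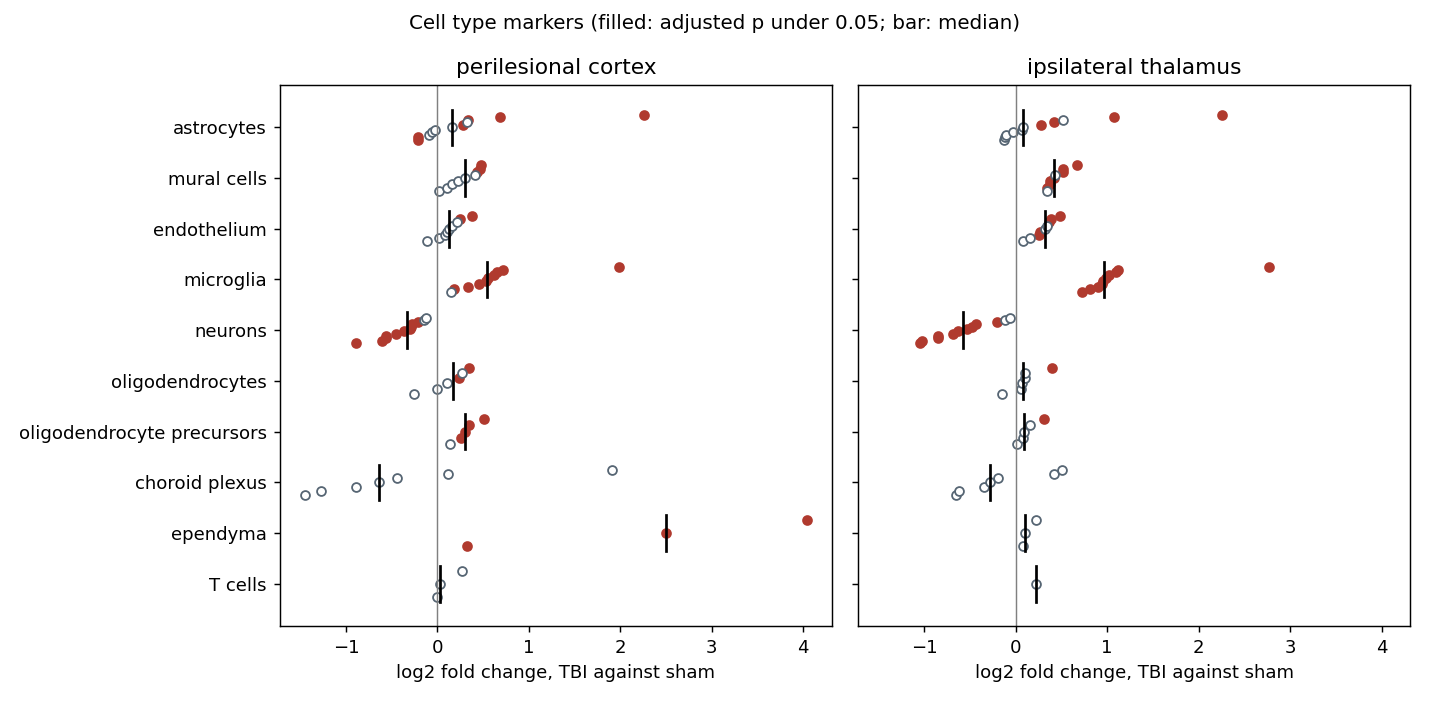
Log2 fold change in TBI against sham-operated rats (horizontal axis) of cell type markers by list in the perilesional cortex (left) and the ipsilateral thalamus (right). Each point is a gene, filled when its adjusted p was under 0.05, and the bar is the list's median. Microglial genes lie above 0 and neuronal genes below 0 in both regions, and ependymal genes are filled in the cortex.

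The loci whose values followed each member from library to library were named by the Pearson correlation of log2 values, each centred on its group mean, over the 24 libraries and 13760 loci. Libraries share scaling, RNA quality and tissue composition, so these correlations are descriptions and have no test. Notch1 was followed most by Numa1 (0.93), Tnrc18 (0.90) and Mbd6 (0.87). Notch2 was followed by Hspg2 (0.95), the basement membrane protein perlecan, Slc4a2 (0.93) and Iqgap1 (0.92). For Notch3 the genes were Ltbp4 (0.89), a matrix protein, Smtn (0.89), a smooth muscle protein, and Arap1 (0.88). The joined Notch4 locus was followed by Sts and DHRSX (0.93 each) and Mtss1l (0.91).

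For the ligands, Dll1 was followed by the locus of Rab40c and Wfikkn1 (0.85), Plk3 (0.84) and Uhrf1bp1 (0.83), and Jag1 by Fam198b (0.85), Gas1 (0.84) and Tcn2 (0.83). Jag2 had the highest value of all, with Atf6b (0.96), Pgls (0.95) and Med25 (0.94). Among the targets the correlations were lower for Hey1, with Tbc1d13 and Osbpl5 (0.79 each) and Ghdc (0.78), than for Hes1, with PLD2 (0.83), Rgl3 (0.80) and Mvb12a (0.80), and Hes5, with Vars (0.87), Ell (0.86) and Gnb5 (0.85). No member of the pathway was among the 3 loci nearest to another member.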

How the data were processed

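Polyadenylated RNA of 24 libraries was analysed. Per the study's methods and the labels, the authors aligned stranded reads with TopHat 2.0.11 and Bowtie2 2.2.2, and used Cufflinks 2.2.1 and Cuffdiff. The methods name RGSC3.4 as the genome and Rnor_5.0 as the annotation, the labels Rnor_5.0 alone. The deposited signal is normalized counts: fragments of a locus that the authors divided by a library size factor. These were whole multiples of the step of a library (tolerance 0.1), which gave back fragments for 23 libraries; the step of sham thalamus rat 55 was too near 1 to be told apart. No column of values was left unused.

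The 10 members and all lists were chosen with earlier results of these data known. All members are named. Of the other pathway genes, those called with the 3 largest rises and 3 largest falls are named, plus genes needed to say what a count holds, and for each member the 3 most correlated loci (mean of at least 50).

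limma 3.58.1 (R 4.3.3, eBayes with trend) was fitted on log2(normalized count + 1) of named loci with a mean of at least 10, with Benjamini-Hochberg adjustment over all loci, and was tested on simulated data. A pseudocount understates changes of low genes. The 2 regions of a rat share its number and come from the same animal: deviations from group means correlated over 12 rats with a median of 0.19 (0.0039 to 0.57), and 10 of 12 exceeded 0.1. The fit without this block is the main result. Alternatives were the pseudocount, the filter, TMM and upper quartile scaling, limma-voom, 1 fit of all libraries, an adjusted p of 0.01, the block, and leaving out libraries. edgeR 4.0.16 on recovered fragments of 23 libraries, without sham thalamus rat 55, was added after seeing the data. Loci without a gene name (15693 of 42334) were not tested. Levels were not compared between genes, since no length was used. Sequencing dates were not given in the sources used here. The values of 1 gene of the pathway lists are not reported here.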

Additional observations from a re-analysis of the deposited data

Results flagged for a closer look

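A library far from the others of its group was found for 5 of the 40 groups of member values tested (10 members in 4 groups of 6), where chance gives about 1 in 20. Notch2 had 4442 normalized counts in the thalamus of TBI rat 45, with 2464 in the nearest library. Notch3 had 1363 in the thalamus of sham rat 34, with 1059 in the nearest. Hes1 had 184.5 in the cortex of TBI rat 63, below the nearest value of 256, and 226 in the thalamus of sham rat 32, above the nearest of 173. Hes5 had 754 in the cortex of TBI rat 24, with 447 in the nearest library.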

How the results depend on the processing

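The calls of Notch1 and Notch2 in the cortex and of Dll1, Hey1 and Hes1 between regions held under every alternative run, and that of Hey1 in the cortex under all but an adjusted p under 0.01. Leaving out single libraries gave 3 to 4 members higher and 0 lower in the cortex, 0 to 2 higher and 0 to 1 lower in the thalamus, 0 in the difference between regions, and 2 to 4 higher and 2 lower between sham regions. A single fit of all 24 libraries called 1 member higher in TBI thalamus and 1 lower in sham thalamus, as did an adjusted p under 0.01 for the latter. At that threshold all loci gave 1337 higher and 1099 lower in the cortex, 1405 and 2024 in the thalamus, and 162 and 242 in the difference. With the rat as a replicate block 504 loci were higher and 797 lower in the difference, against 427 and 711 without it, and no call of a member changed.

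Signs turned for uncalled estimates near 0, on the log2 scale. Upper quartile scaling gave 0.00048 for Hes1 in the cortex and 0.018 for Notch4 in the difference, and TMM gave 0.0085 for Dll1 in the thalamus. Leaving out libraries gave from -0.072 to 0.077 for Hes1 and from -0.026 to 0.24 for Hes5 in the cortex. In the thalamus it gave from -0.033 to 0.10 for Notch3, from -0.099 to 0.0081 for Dll1, from -0.0074 to 0.15 for Jag1 and from -0.016 to 0.16 for Hes1. In the difference it gave from -0.091 to 0.067 for Notch4 and from -0.14 to 0.021 for Jag1, and between sham regions from -0.027 to 0.13 for Notch4. Of 1020 alternatives for single members 978 kept direction and side of the threshold, 28 changed sign, 11 passed the threshold newly and 3 lost it; apart from the constructions named, the cause was not tested. Each member had at least 130 fragments in every library, and counting error was not separated from the variation between rats.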
